A study of Mus musculus with 22 samples.

Results

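In G1ER cells, 22987 CTCF peaks lay away from promoters, carried no called peak of an active histone mark, and were present both before and after GATA1 activation. They were chosen by measured values. A peak of the undifferentiated (0 h) CTCF list was kept if it overlapped a peak of the 24 h CTCF list by at least 1 bp, lay more than 1 kb from every protein-coding transcription start site (TSS) of GENCODE M21, and overlapped no peak in any of 20 lists of H3K4me3 or H3K27ac. They made up 69.3% of the 33193 CTCF peaks at 0 h, and 75.2% of the 30582 peaks that were shared with the 24 h list of 41473 peaks. The other shared peaks were 3624 within 1 kb of a TSS, 3599 distal peaks with H3K27ac, and 372 distal peaks with H3K4me3 alone. A further 2611 peaks of the 0 h list had no counterpart at 24 h.

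The study followed erythroid differentiation of mouse G1ER (G1E-ER4) cells by ChIP-seq, an assay that sequences DNA bound to an immunoprecipitated protein. G1ER cells are an established line of Gata1-null erythroid progenitors that carry GATA1 fused to the ligand-binding domain of the estrogen receptor, so that β-estradiol activates GATA1. All groups shared this genotype and were grown with stem cell factor and erythropoietin. Cells without β-estradiol (0 h) and cells after 24 h of β-estradiol gave 1 CTCF list each, and H3K4me3 and H3K27ac had 2 lists each at 0, 2, 6, 12, and 24 h. Because CTCF had no replicate, differences between its lists have no test, and every interval given below is a 95% Wilson interval that covers counting error over regions only. The lists hold no read counts, so depth is unknown, and a region without a peak may still carry a weak signal. Of 11 erythroid marker genes, 6 had an H3K4me3 peak over the TSS in all 10 lists and Tal1 had it in none, while 9 genes of other lineages had it in no list.

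CTCF is a zinc finger protein that binds an asymmetric DNA motif, and it acts as an insulator and as an anchor of chromatin loops. Cohesin, the ring complex that extrudes loops, is halted by CTCF preferentially when the motif points toward the inside of the loop, so loop anchors tend to carry motifs in convergent orientation. Many CTCF sites in rodents lie in transposed repeats, in particular in a family of short interspersed elements that brought a CTCF motif with it.

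The sequences under 7 of the 8 strongest of these peaks show the motif directly. Strength was the lower of a peak's score percentiles within the 0 h and the 24 h list, because the deposited scores are not comparable between libraries. Each line gives the gene with the nearest protein-coding TSS, the GRCm38 (mm10) position, the strand, and 60 bases read along the motif from 5′ to 3′, in which capitals mark the best 20-base CTCF match.
Sec22c, chr9:121697904-121697963, plus strand: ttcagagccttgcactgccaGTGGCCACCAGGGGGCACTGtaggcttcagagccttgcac
Uvrag, chr7:99151387-99151446, minus strand: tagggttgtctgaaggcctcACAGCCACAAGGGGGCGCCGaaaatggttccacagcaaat
Miga1, chr3:152316255-152316314, minus strand: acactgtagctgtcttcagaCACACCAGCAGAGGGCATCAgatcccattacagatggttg
F5, chr1:164138808-164138867, minus strand: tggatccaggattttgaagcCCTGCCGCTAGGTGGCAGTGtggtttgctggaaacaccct
Ing4, chr6:125030680-125030739, minus strand: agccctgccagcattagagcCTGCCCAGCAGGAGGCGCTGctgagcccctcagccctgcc
Gm11127, chr17:36061003-36061062, minus strand: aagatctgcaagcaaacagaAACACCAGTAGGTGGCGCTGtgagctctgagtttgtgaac
Cript, chr17:87044605-87044664, minus strand: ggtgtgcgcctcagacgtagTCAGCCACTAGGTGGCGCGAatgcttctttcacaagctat
All 7 peaks held a match above the threshold, and in 6 of them the match lay at least partly outside the repeats that the assembly soft-masks. The exception was the peak in an intron of Miga1, whose match lay wholly in masked sequence and 483 bp from the peak centre, against at most 214 bp for the others.

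The strongest of these peaks, chr9:121697099-121698340, lay in an intron of Sec22c, 4.06 kb from its TSS, with a score of 927.27 at 0 h and 1504.21 at 24 h. These were the highest scores of all the unmarked distal peaks in both lists. The peak near Uvrag, which encodes an autophagy and endosome regulator, was intergenic at chr7:99150870-99151984, with scores of 767.82 and 1451.53. The peak nearest to Ing4, which encodes a subunit of a histone acetyltransferase complex, lay over a coding exon of Zfp384, a zinc finger gene, and 8.43 kb from the Ing4 TSS. The peak nearest to F5, the gene of coagulation factor V, was in an intron of the neighbouring gene Selp, which encodes P-selectin, and lay 84.6 kb from the nearest histone peak, the farthest of the 7. The remaining 6 lay between 4.35 kb (Miga1) and 17.1 kb (Cript) from one.

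The 5 sequences with the highest match scores are shown next, because they give the motif in its most complete form and because their peaks were not alike in strength. The matrix allows at most 27.7 bits, and these sites scored from 27.1 to 27.3 bits.
Rrnad1, chr3:87935876-87935935, plus strand: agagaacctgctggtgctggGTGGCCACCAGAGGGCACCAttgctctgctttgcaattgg
Evc, chr5:37291145-37291204, minus strand: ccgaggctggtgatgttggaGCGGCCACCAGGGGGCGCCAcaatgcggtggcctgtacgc
Zdhhc7, chr8:120078210-120078269, minus strand: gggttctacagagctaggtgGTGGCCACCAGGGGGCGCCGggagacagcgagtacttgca
Rdh8, chr9:20831161-20831220, minus strand: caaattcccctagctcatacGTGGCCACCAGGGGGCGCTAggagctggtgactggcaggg
Gpr132, chr12:112875724-112875783, plus strand: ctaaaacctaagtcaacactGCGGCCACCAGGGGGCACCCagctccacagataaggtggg
The peak near Rdh8, the gene of a retinol dehydrogenase, stood at percentile 96.2 of the 0 h list and 89.6 of the 24 h list. The peak where Evc, a gene of the primary cilium, and Crmp1 overlap stood at percentile 11.5 and 52.3 with a site of the same quality. A near-complete motif was thus found under both a strong and a weak peak.

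As a group, the unmarked distal peaks were weaker than the other shared peaks. Their median score was 123 at 0 h and 199 at 24 h, with lowest scores of 50.01 and 50.06. The median percentile within the 0 h list was 51.4 (interquartile range 28.5 to 74.2), against 60.3 for shared peaks within 1 kb of a TSS and 64.1 for distal peaks with H3K27ac. In the 24 h list the medians were 61.0, 70.0 and 74.7, in the same order. The 3 distributions overlapped over most of their range. Among shared peaks, the share that was distal and unmarked was 78.9% in the lowest of 10 equal score groups of the 0 h list, 77.6% in the sixth and 59.0% in the highest. The peaks were also narrower, with a median width of 812 bp at 0 h against 871 bp near TSSs and 862 bp at distal H3K27ac.

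**Figure D1:**
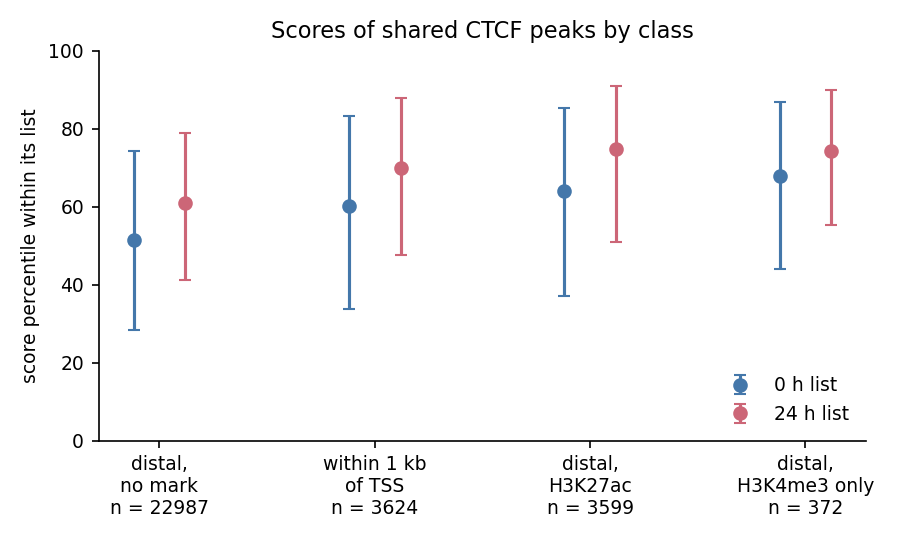
Score percentile of shared CTCF peaks within the 0 h list and the 24 h list (y axis, 0 to 100) for 4 classes of peaks (x axis). Points are medians and bars are interquartile ranges over peaks; the 22987 distal peaks without a mark have the lowest median at both times, 51.4 and 61.0, with wide overlap between classes.

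Their order of strength was largely kept over 24 h. Across the 22987 peaks, the scores of the 2 lists correlated with a Spearman's rho of 0.803, which is a description because all points share the same 2 libraries and the same peak caller. The centres of the 0 h and 24 h peaks lay a median of 74.5 bp apart, and 63.6% lay within 100 bp. The median change of a peak's percentile from 0 h to 24 h was 6.50 points, against 6.41 at distal H3K27ac and 6.01 near TSSs, and the 24 h list held more peaks. When ranks were taken among shared peaks only, the unmarked distal peaks changed by a median of -0.773 percentile points (interquartile range -11.6 to 10.1), with 1000 peaks up and 1074 down by more than 30 points. Distal peaks with H3K27ac changed by a median of 1.14 points, and 55.0% of them rose in rank against 47.7% of the unmarked peaks. Whether this difference exceeds the spread between CTCF replicates cannot be tested with 1 list per time.

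The 4 largest rises in percentile were near Sh3d21, Adgrg5, Uggt2 and Csrp1. At Sh3d21, the score was 50.48 at 0 h and 404.25 at 24 h, which moved the peak from percentile 0.586 to 88.9. At all 4, the 24 h peak also overlapped another peak of the 0 h list, so the 24 h score belonged to a pair of 0 h peaks. Such sharing was rare, with 237 of the 22987 peaks. The 4 largest falls were in an intron of Itpk1, an inositol phosphate kinase gene, and near Cobl, Kcna10 and Spata19, and each of these had a 24 h peak of its own. At Itpk1 the score was 169.36 at 0 h and 50.68 at 24 h, or percentile 68.1 and 0.510.

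The share of peaks with a CTCF motif depended on the matrix. The search used a matrix learned from 1386 exact matches to the CTCF core consensus in the 10206 peaks of the 0 h list outside this set, and a threshold of 9.95 bits that 5% of 43843 flanking windows of the same length reached by construction. Of the 22987 peaks, 16856 (73.3%, 72.8% to 73.9%) held a match, against 63.3% (61.7% to 64.8%) of distal peaks with H3K27ac and 49.9% (48.2% to 51.5%) of peaks within 1 kb of a TSS. The share was 56.4% in the peaks seen only at 0 h, and 67.7% in the 8916 distal unmarked peaks seen only at 24 h. Those peaks were shorter, with median lengths of 584 bp and 634 bp against 812 bp, and the shares were not adjusted for length. With a matrix refined over 2 rounds, which had moved to a site type common in repeats and was set aside after its result was seen, the share was 34.6%. A stricter threshold, reached by 1% of flanks, was passed by 46.8%. The exact core consensus occurred in 22.1% of the peaks and in 0.287% of the flanks.

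The match was central and mostly alone. Among the 16856 peaks, the best match lay a median of 63.0 bp from the 0 h peak centre, and 71.7% lay within 100 bp. Measured from the 24 h centre, 74.1% lay within 100 bp. A match count of 1 was found in 91.8%, and 3 or more in 0.659%. The plus strand held 50.5% (49.7% to 51.2%) of the best matches.

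**Figure D2:**
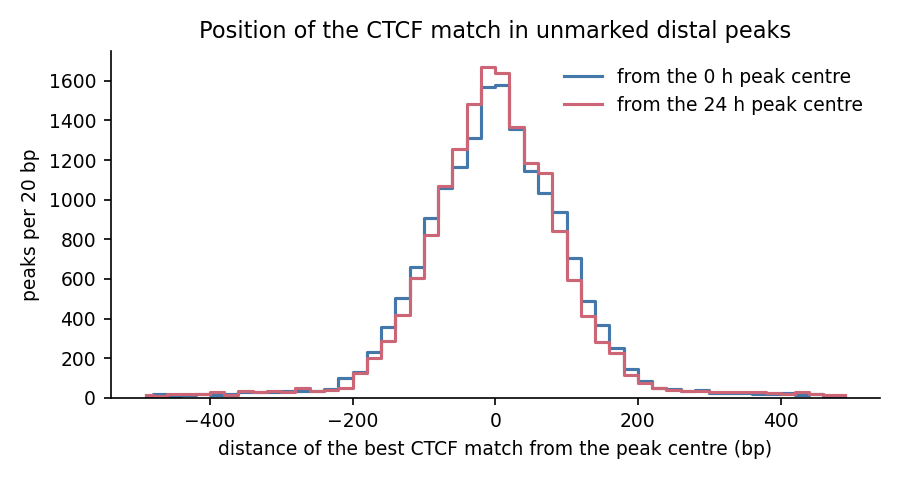
Number of unmarked distal peaks per 20 bp (y axis) by distance in bp of the best CTCF match from the peak centre (x axis), for the 16856 peaks with a match. Both curves peak at the centre, with 71.7% of matches within 100 bp of the 0 h centre and 74.1% within 100 bp of the 24 h centre.

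Base composition and a GATA word were compared as well. Median GC content was 44.2%, close to the 44.6% of the flanks and below the 53.2% of shared peaks near TSSs. AGATAA, which is bound by GATA factors, was searched on both strands and occurred in 37.0% (36.4% to 37.7%) of the peaks, in 36.7% of the flanks and in 38.9% (37.3% to 40.5%) of the distal peaks with H3K27ac. Per peak, it was less frequent in shared peaks near TSSs, with 26.1% (24.7% to 27.6%). The share was 30% (28.3% to 31.8%) in peaks seen only at 0 h and 31.8% (30.8% to 32.8%) in distal unmarked peaks seen only at 24 h. These last peaks were shorter, with median lengths of 584 bp and 634 bp against 812 bp for the shared unmarked distal peaks. The shares were not adjusted for length, so whether the word is scarcer per base was not tested.

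The CTCF matches fell into those in repeats and those outside them. The best match lay wholly in soft-masked repeat sequence in 5768 peaks (34.2% of those with a match) and at least partly outside it in 11088, while 6131 peaks had no match. Masked matches made up 33.1% of those in distal H3K27ac peaks and 60.9% of the chance matches in flanks. The 3 most frequent sites among the best matches are shown, with capitals for the whole matched site, since they share a core that recurs in many peaks.
Site in 240 peaks: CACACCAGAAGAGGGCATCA
Site in 234 peaks: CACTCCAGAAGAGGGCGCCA
Site in 224 peaks: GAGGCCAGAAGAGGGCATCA
Every copy of these 3 sites in the peaks was soft-masked. In total, 85 sites were the best match in 10 or more peaks and accounted for 3078 peaks, while 11117 sites were so in a lone peak.

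All 3 share the 9-base word CCAGAAGAG, which was picked after these sites had been seen. It occurred on either strand in 27.2% (26.6% to 27.7%) of the unmarked distal peaks, in 25.3% (23.9% to 26.8%) of distal peaks with H3K27ac, in 16.3% of peaks near TSSs and in 6.72% of the flanks. Among distal unmarked peaks seen only at 24 h it occurred in 50.4% (49.4% to 51.5%), and among peaks seen only at 0 h in 38.8%. The word CCACNAGNG is compatible with some forms of the core consensus and cannot match the same letters in the same register. It occurred in 21.3% of the unmarked distal peaks and in 8.51% of flanks. Its share was 11.3% in the distal unmarked peaks seen only at 24 h, which were shorter, with a median of 634 bp against 812 bp. The repeat family of the masked sites was not annotated here.

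Repeat-borne sites were found mainly under the weaker peaks. Peaks with a masked match had a median percentile of 36.5 in the 0 h list, against 62.6 for peaks with a match outside repeats and 44.9 for peaks without a match. Their median score was 92.9 at 0 h and 151 at 24 h, against 153 and 248 for matches outside repeats. When the peaks were ordered by strength into 5 equal groups, a match was found in 68.2% (66.8% to 69.5%) of the weakest 20% and in 80.7% (79.6% to 81.8%) of the strongest 20%. Over the same groups the masked share of matches was 58.7%, 46.0%, 33.6%, 22.3% and 15.4%, from weakest to strongest. CCAGAAGAG went from 40.3% to 16.0%, CCACNAGNG from 14.7% to 28.8%, and the exact core consensus from 11.8% to 34.5%. Median peak width went from 650 bp to 948 bp over these groups, and the shares were not adjusted for it. Only uniquely mapped reads were kept for the histone lists, and the labels state the same filter for CTCF, so fewer reads can be placed in young repeats. The part of mapping in these values was not tested.

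**Figure D3:**
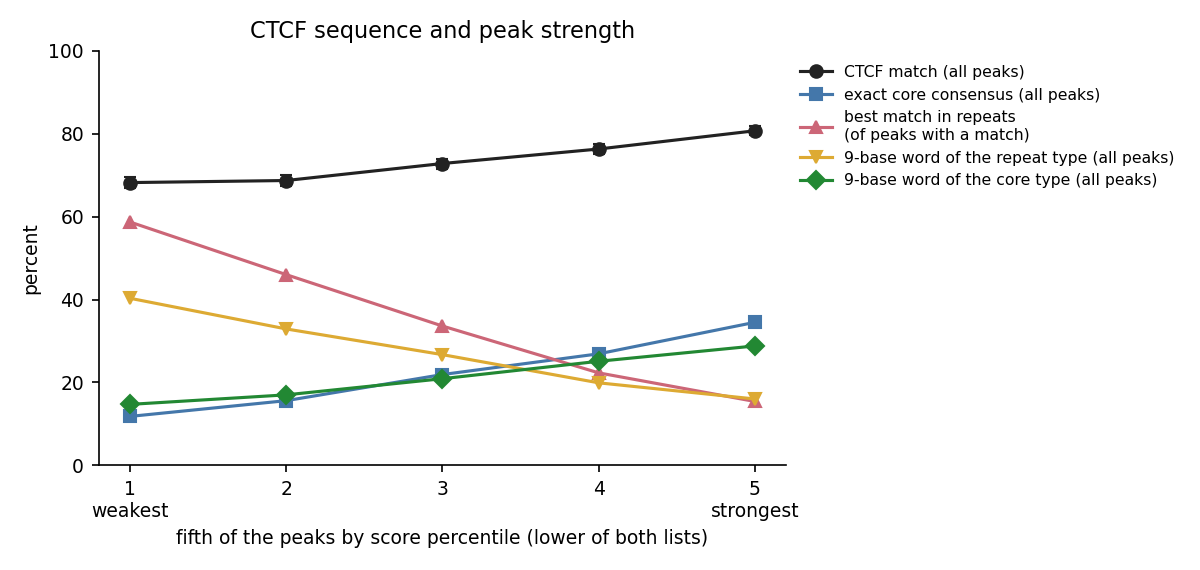
Percent of unmarked distal peaks (y axis) with a CTCF match, the exact core consensus or either 9-base word, and percent of matches that lie in soft-masked repeats, in 5 equal groups by strength (x axis). Bars on the black line are 95% Wilson intervals; the match share goes from 68.2% to 80.7% while the masked share of matches goes from 58.7% to 15.4%.

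The peaks lay in gene introns and between genes. By the base at the peak centre, 11050 (48.1%) were in introns of protein-coding genes and 9933 (43.2%) were intergenic. The shares were similar in distal peaks with H3K27ac, with 45.9% and 41.8%. Of genome positions sampled every 1 kb, 36.4% and 55.0% lay in these places. Coding exons held 372 peaks and UTRs 521, and 1111 lay in genes of long noncoding RNAs outside protein-coding genes. The median distance to a protein-coding TSS was 19.1 kb (interquartile range 7.88 to 45.5 kb), against 13.0 kb for distal peaks with H3K27ac. The rule barred overlap with both marks, while the other class required H3K27ac. The part of that choice in the difference was not tested. Within 1 to 10 kb lay 30.8% of the peaks, and 300 (1.31%) lay beyond 500 kb. Peaks with a masked match lay nearer to TSSs, with a median of 15.1 kb, than those with a match outside repeats, with 21.2 kb. The rule's distance limit passed between a peak at 1001 bp from Lrrc42 and a peak at 1000 bp from Ffar1.

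The 3 peaks farthest from any protein-coding TSS were nearest to Pcdh20 (1962 kb), G6pd2 (1893 kb) and Pcdh9 (1778 kb). The peak at chr14:90432962-90433637, named after the protocadherin gene Pcdh20, had scores of 200.71 and 337.94 (percentiles 77.2 and 81.9). It had a match of 21.8 bits outside repeats. The others had no match, and the one nearest to Pcdh9 had the scores 55.61 and 95.02 (percentiles 6.79 and 31.4).

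Their density followed that of genes. It was 8.68 peaks per Mb over 2648 Mb of sequence, with 13.9 per Mb on chromosome 11 and 12.3 on chromosome 19, the chromosomes with the most peaks per Mb, 4.28 on chromosome X, and 4 peaks in all on chromosome Y. Over 2615 bins of 1 Mb, the median was 1 peak in the 301 bins without a protein-coding TSS, 4 in bins with 1 to 5 genes, 12 in bins with 6 to 20, and 20 in bins with more than 20. Neighbouring bins and peaks are not independent, so the rho of 0.758 between peaks and genes across bins is a description. The gap between neighbouring peaks had a median of 39.7 kb (interquartile range 15.0 to 96.2 kb), and 7.79% of gaps were under 5 kb.

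The bin with the most peaks was chr7:19000001-20000000, with 43 peaks and 54 protein-coding genes, among them Apoe, the gene of apolipoprotein E, Ercc1 and Ercc2 of nucleotide excision repair, and Relb and Bcl3 of the NF-κB pathway. The bin chr17:28000001-29000000, with Fkbp5, Mapk14 and Srpk1, held 42 peaks. The bin chr4:136000001-137000000, with Id3, E2f2 and the complement genes C1qa, C1qb and C1qc, held 38. E2f2 encodes a cell-cycle transcription factor. Each of the bins chr11:97000001-98000000, with Kpnb1 and Tbx21, and chr12:112000001-113000000, with Akt1 and Jag2, held 35. In the chromosome 12 bin, 1 of the 35 peaks had a masked match, against 16 of 42 in the chromosome 17 bin.

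Neighbouring peaks changed in relative motif direction with distance. Neighbours were consecutive unmarked distal peaks, so CTCF peaks of other classes could lie between them. Among 10225 neighbouring pairs that were 200 kb or less apart and had matches on 1 strand each, 51.3% pointed the same way, 25.7% (24.8% to 26.5%) pointed apart, and 23.0% (22.2% to 23.8%) pointed toward each other. At gaps of up to 10 kb, divergent pairs were the more frequent, with 28.3% (26.4% to 30.3%) against 17.2% (15.6% to 18.9%) convergent. At 50 to 100 kb the shares were 23.9% and 26.2%, and their intervals overlapped. At 100 to 200 kb, convergent pairs were the more frequent, with 32.1% (29.7% to 34.5%) against 18.9% (16.9% to 21%), and at 200 kb to 1 Mb the shares were 34.5% and 17.7%. The intervals treat pairs as independent, but consecutive pairs can share a peak, so they can be too narrow.

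The shares also differed between sites in and outside repeats. Where both sites were at least partly unmasked, 27.5% (26.2% to 28.8%) of pairs within 200 kb were divergent and 21.3% (20.1% to 22.5%) convergent. Where both were masked, the shares were 22.7% (20.7% to 24.8%) and 25.8% (23.7% to 28.0%), with overlapping intervals. The convergent pairs with unmasked sites were longer than the divergent ones, with a median gap of 48.9 kb against 25.2 kb, so what pairs of any site type enclosed was compared within ranges of gap. A protein-coding TSS was enclosed by 82.9% of convergent and 74.8% of divergent pairs at 100 to 200 kb, by 76.8% and 72.8% at 50 to 100 kb, by 49.7% and 48.6% at 10 to 50 kb, and by 7.08% and 9.81% at up to 10 kb. An H3K27ac peak was enclosed by 61.2% and 61.7% at 100 to 200 kb, by 58.7% and 67.3% at 50 to 100 kb, and by 42.1% and 44.9% at 10 to 50 kb. At up to 10 kb the H3K27ac shares were 8.5% and 8.61%. At 200 kb to 1 Mb, 52% of convergent and 44.5% of divergent pairs enclosed an H3K27ac peak, and 85.3% and 76.1% enclosed a TSS. The order of convergent and divergent pairs was thus not the same in all ranges, either for TSSs or for H3K27ac. No intervals were computed for these enclosed shares.

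**Figure D4:**
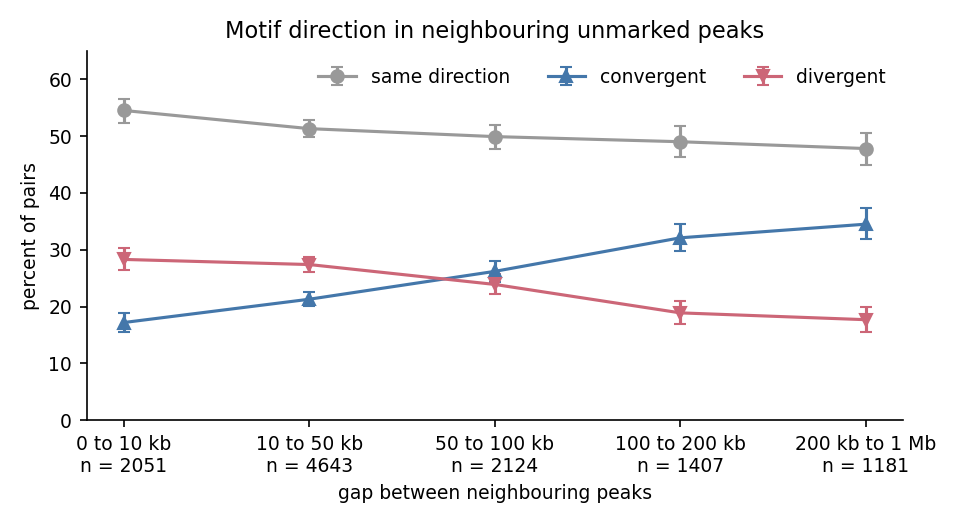
Percent of neighbouring pairs of unmarked distal peaks (y axis) whose CTCF matches point the same way, toward each other or apart, by gap between the peaks (x axis, 5 ranges with the number of pairs). Bars are 95% Wilson intervals; convergent pairs go from 17.2% at up to 10 kb to 34.5% at 200 kb to 1 Mb, and divergent pairs from 28.3% to 17.7%.

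Most of the CTCF peaks had no active mark close by. The rule excluded overlap only, and the nearest H3K4me3 or H3K27ac peak of any list was a median of 19.3 kb away (interquartile range 6.04 to 60.2 kb). Within 1 kb lay 4.85% of the CTCF peaks and within 10 kb 35.0%. A mark within 10 kb was found on 1 side only in 27.3% and on both sides in 7.70%. Peaks with a masked match were nearer to a mark (median 11.4 kb) than those with a match outside repeats (26.2 kb).

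The share of CTCF peaks with an H3K4me3 peak within 10 kb was lower in each list from 6 h on than in either list at 0 h. In undifferentiated cells the lists gave 22.1% and 22.7%. At 2 h they gave 22.2% and 21.1%, and at 6 h they gave 21.5% and 21.4%. The values were 21.2% with 21% at 12 h, and 20.9% with 21.1% at 24 h. The lists at 2 h overlapped both groups. Across the 10 lists, Spearman's rho between the share and time was -0.763 and Pearson's r was -0.716, and with the 24 h pair removed they were -0.732 and -0.748. These are descriptions with no test, since the rule had used the same histone lists. The number of H3K4me3 peaks per list, from 14452 at most to 12925 at least, followed the share with a Pearson's r of 0.997. When every list was reduced to its 12925 highest-scoring peaks, the share was 21.1% at 0 h and 21% at 24 h, and rho was -0.494.

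For H3K27ac, the lists of undifferentiated cells gave a share within 10 kb of 26.1% each. Those of 2 h gave 26% and 26.4%, and those of 6 h gave 26.8% and 26.9%. After 12 h the lists stood at 26.6% and 26.9%, and after 24 h at 26.6% and 25.8%. The mean was 26.1% ± 0.0283 (SD, n = 2) at 0 h and 26.2% ± 0.594 (SD, n = 2) at 24 h. Over the 10 lists, rho was 0.271 and r was 0.0708, again as a description, and with the 24 h pair removed they were 0.781 and 0.784, so the values rest on those lists. Without replicate 2 at 24 h alone, rho was 0.703. With 17247 highest-scoring peaks per list, the share was 25.6% at 0 h and 26% at 24 h, and rho was 0.788.

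**Figure D5:**
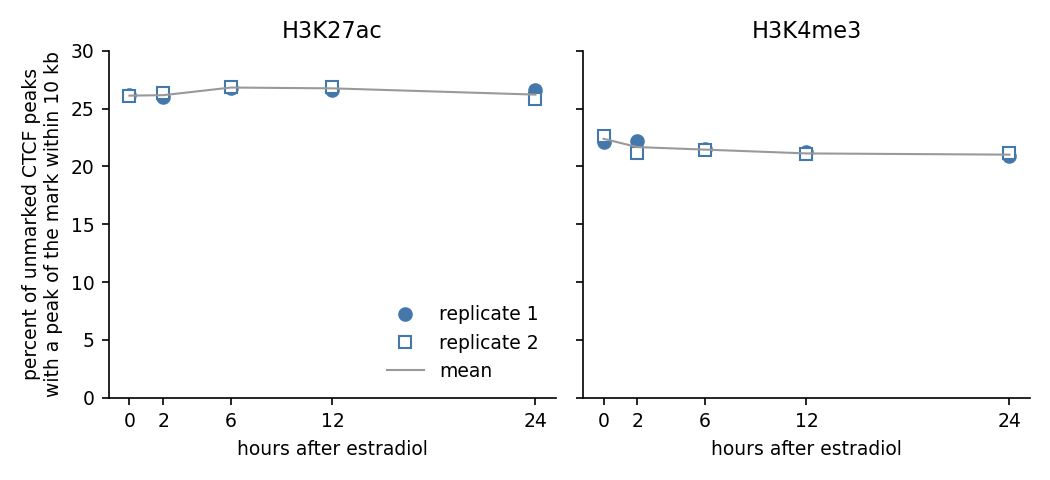
Percent of the 22987 unmarked CTCF peaks with a peak of H3K27ac (left) or H3K4me3 (right) within 10 kb (y axis) by hours after β-estradiol (x axis). Filled and open symbols are the 2 replicate lists and the line joins their means; H3K4me3 lies between 20.9% and 22.7% and H3K27ac between 25.8% and 26.9%.

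At 28 loci with known roles of CTCF or of hematopoietic factors, 81 of 154 shared CTCF peaks (52.6%) were distal and unmarked, against 75.2% of all shared peaks. Of the rest, 40 were distal with H3K27ac, 15 of them at Firre, 29 lay within 1 kb of a TSS and 4 were distal with H3K4me3 alone. The windows reached 50 kb beyond the listed genes. At the 9 loci of hematopoietic factors the count was 22 of 42, at the 4 Hox clusters 16 of 25, at the 3 imprinted loci 12 of 16, at the 4 antigen receptor loci 5 of 10, and at both globin loci together 7 of 12.

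The α-globin (Hba) window held 6 unmarked peaks among 9 shared ones. A pair lay in introns of Nprl3, whose introns also house the α-globin enhancers. The pair had scores of 108.07 and 168.12 at 0 h and of 171.76 and 317.44 at 24 h. Their percentiles were 44.6 and 67.7 at 0 h and 55.2 and 79.4 at 24 h. The strongest, chr11:32320737-32321796, was intergenic on the far side of the genes, with a score of 319.85 at 0 h (percentile 95.6) and 989.67 at 24 h (percentile 99.7). Its site and those of the other peaks with a match are shown with the 20-base match in capitals, since their directions differ across the window.
Nprl3 intron, chr11:32238633-32238692, minus strand: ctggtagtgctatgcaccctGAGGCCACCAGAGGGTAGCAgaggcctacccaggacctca
Intergenic peak of 989.67 at 24 h, chr11:32321371-32321430, minus strand: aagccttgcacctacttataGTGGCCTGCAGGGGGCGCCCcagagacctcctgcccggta
Upstream of Sh3pxd2b, chr11:32341270-32341329, minus strand: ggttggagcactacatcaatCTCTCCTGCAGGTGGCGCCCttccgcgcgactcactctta
Upstream of Sh3pxd2b, chr11:32342918-32342977, plus strand: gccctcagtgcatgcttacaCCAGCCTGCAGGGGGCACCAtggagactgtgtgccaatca
All 4 matches lay at least partly outside repeats, and 3 pointed to the minus strand.

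The β-globin (Hbb) window held 1 unmarked peak among 3 shared ones, chr7:103806605-103807322, 6.67 kb from the TSS of Hbb-bt. It stood at percentile 88.2 at 0 h and 88.1 at 24 h, and had no match above the threshold. RefSeq lists 9 curated CTCF binding sites in the mouse genome, of which 0 lay in the unmarked distal peaks. Of the β-globin sites, a core CTCF site lay in a shared peak within 1 kb of the olfactory receptor gene Olfr67. That peak overlapped H3K27ac in 7 of the 10 lists. The site at HS-85.5 lay in a shared peak within 1 kb of Olfr633, another such gene, that overlapped neither mark. The site at HS-62.5 lay in a shared peak with H3K27ac in all 10 lists, and 6 sites lay in no CTCF peak at either time. Of these, 4 were in the imprinting control region of H19, a maternally expressed noncoding RNA.

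The Gata2 window held 6 shared CTCF peaks, and all 6 were distal and unmarked. Gata2 encodes the progenitor GATA factor that GATA1 replaces during erythroid differentiation. The strongest, chr6:88188964-88190015, lay 3.88 kb from a Gata2 TSS within a noncoding RNA gene, with scores of 287.43 at 0 h and 584.04 at 24 h (percentiles 93.0 and 97.6). The nearest histone peak of any list was 35.5 kb from this peak, so no list had a called peak over that TSS. The study describes a high level of GATA2 in undifferentiated cells. It also reports modest changes of accessibility and epigenetic landscapes at the promoter and enhancers of Gata2 at 12 h and 24 h. Unmarked thus means here only that no peak was called, and whether the lists missed signal was not tested. The other 5 peaks had scores from 57 to 168.37 at 0 h. Their sites differ in kind, as the capitals show for the strongest peak and for a weaker one.
Gata2, strongest peak, chr6:88189608-88189667, plus strand: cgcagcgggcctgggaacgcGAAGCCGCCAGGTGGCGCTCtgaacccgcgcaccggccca
Gata2, peak of 62.55 at 0 h, chr6:88151504-88151563, plus strand: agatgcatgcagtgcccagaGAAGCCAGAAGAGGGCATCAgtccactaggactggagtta
The match of the weaker peak was masked and held the repeat-type word. In the Gata1 window 3 of 5 shared peaks were unmarked, and all 3 had masked matches, with scores from 79.16 to 115.02 at 0 h. Kit, the receptor of stem cell factor, had 1 unmarked peak in an intron, with scores of 80.38 and 80.34 (percentiles 28.8 and 23.9) and a masked match.

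At the other factor loci, Tal1 had 2 unmarked peaks of 6 shared, Klf1 2 of 6, Spi1 3 of 7, Runx1 4 of 6, Myc 1 of 2 and Myb 0 of 2. The Tal1 peak at chr4:115085330-115085996, downstream of the gene and 2.71 kb from the TSS of Pdzk1ip1, had scores of 309.74 and 618.73 (percentiles 94.9 and 98.1). Spi1, which encodes the myeloid factor PU.1, had an intronic peak at percentile 94.2 and 94.4.

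The Hox clusters, which pattern the body axis, had 3 unmarked peaks of 5 shared at Hoxa, 7 of 9 at Hoxb, 2 of 4 at Hoxc and 4 of 7 at Hoxd. The highest was at Hoxd, 1.89 kb from the TSS of Hoxd8, with scores of 317.2 and 507.84 (percentile 95.4 at both times). At the imprinted loci, Kcnq1-Cdkn1c held 9 of 11, Igf2-H19 held 3 of 5, and Dlk1-Meg3 had no CTCF peak in either list. At Kcnq1-Cdkn1c, 8 of the 9 matches lay at least partly outside repeats.

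The remaining loci gave few peaks. The X inactivation center (Xist-Tsix) held 6 unmarked peaks, all of its shared ones, with scores from 54.31 to 147.26 at 0 h. Firre, a noncoding RNA gene with many CTCF sites, stood at the other end, with 3 unmarked peaks against 15 with H3K27ac. The protocadherin clusters (Pcdh) held 5 of 16, and the highest, in an intron of Diaph1, had scores of 513.15 and 791.12 (percentiles 99.4 and 99.3). The antigen receptor loci Igh, Igk and Tcra had 1 each and Tcrb had 2. At Igh the score was 124.99 at 0 h (percentile 52.1) and 54.99 at 24 h (percentile 4.6). Shh had 2 of 2, Cd4 had 3 of 7, and Sox9 had no CTCF peak at 0 h.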

How the data were processed

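ChIP-seq peak lists of 22 G1ER libraries were used. Per the labels and the study's methods, the authors aligned reads with Bowtie2 to mm10, kept uniquely mapped reads, and called peaks per library with MACS. No version was given in the sources used here, and for CTCF no separate methods were given. The score deposited with every peak comes from the authors' peak calling and served here for ranking and filtering alone. The sample descriptions name a human build, but all positions lay within the GRCm38 chromosomes. Depth is unknown, so no interval for it is given.

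The rule was applied with overlaps of at least 1 bp. The regions, loci and word lists were chosen with earlier results of these data known. The CTCF matrix was 20 bases long, learned outside the set without refinement, a choice made after a matrix refined over 2 rounds had moved to the repeat-type site. Flanks lay 2000 bp beyond the peak edges and outside CTCF peaks. Sequences are from GRCm38.p6 and genes from GENCODE M21. Neighbour shares over time were summarised by Spearman's rho and Pearson's r. The exact permutation test planned for them was set aside, because the rule had used the same histone lists. The named regions were the 8 strongest, the 4 largest rises and falls, the 5 best motifs, the 3 farthest from a TSS, the 5 densest bins of 1 Mb, and 28 loci. Of the 8 strongest, 1 is not reported here. Alternatives changed overlap, TSS distance, histone lists, score, motif threshold, window and pair distance. The motif search, permutation test and overlaps were tested on simulated data. Python 3.11.15, NumPy 2.4.6, SciPy 1.17.1 and pysam 0.24.0 were used.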

Additional observations from a re-analysis of the deposited data

How the results depend on the processing

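The number of unmarked distal peaks stayed within 1.5 times of 22987 under all alternatives tried for it but 1. It was 10090 when both CTCF lists were limited to peaks at or above their pooled median score, and without each histone list in turn it lay between 22987 and 23063. The share with a CTCF match was 64.6% in the central 200 bp, 46.8% at the threshold of 1% of flanks, 22.1% for the exact core consensus, 78.1% above the pooled median score, and 34.6% with the matrix refined over 2 rounds, which was run before the unrefined one replaced it. The masked share of matches was 28.6% at the stricter threshold and 19.9% above the median score. The convergent share was 20% up to 50 kb, 24.2% up to 1 Mb, and 22.5% for pairs with no other 0 h CTCF peak between them. In comparisons added after the data were seen, it was 21.3% where both sites were at least partly unmasked and 25.8% where both were masked.

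The rho of the H3K4me3 share with time was negative in all alternatives. It was -0.640 within 5 kb, -0.494 with equal list sizes and -0.665 above the pooled median score, and without each list in turn it lay between -0.924 and -0.687. For H3K27ac, rho turned to -0.0246 both within 25 kb and above the pooled median score, and was 0.788 with equal list sizes. Without each list in turn it lay between 0.161 and 0.703. With the replicate number as a replicate block, rho was -0.788 for H3K4me3 and 0.271 for H3K27ac. The labels give the replicates only a shared number. The cause of these changes was not tested. CTCF had 1 list per time, so what its scores and peaks owe to depth or to the library cannot be told apart from time.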
